A study of Mus musculus with 6 samples.

Results

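The miR-30 family was measured here as 11 mature arms, cut from 6 hairpin genes (Mir30a, Mir30b, Mir30c-1, Mir30c-2, Mir30d and Mir30e), out of 1421 arms with at least 1 read. The members were chosen by name. Reads of 18 to 26 nt were assigned to a member when they lay on the sense strand of its GENCODE M21 hairpin without a mismatch, and to the 5p or 3p arm by comparing the middle of the read with the middle of the hairpin. The 5p arms of both miR-30c hairpins are identical and were counted as 1 arm. All 11 arms passed the filter on low counts, as did 690 arms in all. The libraries came from the sensorimotor cortex of male C57BL/6J mice, operated as adults at postnatal day 90 and sampled 7 days later. In the SCI group (3 libraries) the cervical cord had been cut through. In the control group (3 libraries) the cord had been laid bare and left intact, so that both groups shared anaesthesia and exposure surgery. Per the labels, tissue was kept apart for each sample, and adapters of the HD type, with degenerate terminal bases, were used to build the libraries. Nothing in the labels gives a batch or a date. In this bulk tissue, fewer cells of a type and less RNA per cell cannot be told apart.

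A microRNA hairpin is cut by Drosha in the nucleus and by Dicer in the cytoplasm into a short duplex, of which 1 strand, here mostly the 5p strand, is kept in an Argonaute protein. The bases just after the 5′ end, the seed, pair with target messenger RNAs, so a shift of the 5′ end by a single base gives a strand with another seed. The 3′ end lies outside the seed and can be extended by nucleotidyl transferases that add A or U. The miR-30 family is found across vertebrates and is abundant in brain, muscle and epithelia. In human cells miR-30a is known to repress Beclin 1, an autophagy factor, and the messenger RNA of the neurotrophin BDNF.

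The sequences below show what the members share and what separates them, since every later result concerns their levels, their 5′ starts or their 3′ ends. Of the 11 arms, 7 had a mature sequence in RefSeq (GRCm38.p6), given 5′ to 3′ with the seed (bases 2 to 8) in capitals. The 5p arms printed here share the seed GUAAACA, which was also bases 2 to 8 of the most abundant read of miR-30b-5p and miR-30d-5p. The only other tested arm with this seed was miR-384-5p, from a hairpin on chromosome X, shown for comparison.
miR-30a-5p: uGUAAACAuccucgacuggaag
miR-30c-5p: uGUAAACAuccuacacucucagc
miR-30e-5p: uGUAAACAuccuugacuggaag
miR-384-5p: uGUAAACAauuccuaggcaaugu
miR-30a-3p: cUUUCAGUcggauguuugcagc
miR-30e-3p: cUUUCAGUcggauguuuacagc
miR-30c-1-3p: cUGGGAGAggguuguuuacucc
miR-30c-2-3p: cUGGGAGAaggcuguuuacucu

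Counted from the 5′ end, miR-30a-5p and miR-30e-5p differ by 1 substitution, C13U, and their 3p partners by G18A. The 3p arms fall into seed groups of their own. The seed UUUCAGU was that of miR-30a-3p, miR-30d-3p and miR-30e-3p, the seed UGGGAGA that of both miR-30c 3p arms, and miR-30b-3p had the seed UGGGAUG. Reads of miR-30a-5p and miR-30e-5p were separable despite the single base between them. The 22-nt read of miR-30a-5p carrying either of the other 2 bases at position 13 reached at most 0.0253% of the unaltered read in any library, whereas the miR-30e-5p form reached 36.9% to 51.9%.

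The hairpins lie in 3 pairs in the mouse genome (GRCm38). Mir30a (chr1:23272269-23272339, plus strand) and Mir30c-2 (chr1:23291701-23291784, plus strand) are 19361 bases apart, and the second overlaps an exon of the long non-coding RNA Gm27028. Mir30c-1 (chr4:120769534-120769622, minus strand) and Mir30e (chr4:120772606-120772697, minus strand) are 2983 bases apart in an intron of Nfyc, a gene for a subunit of the CCAAT-binding factor NF-Y. Mir30b (chr15:68337415-68337510, minus strand) and Mir30d (chr15:68341208-68341289, minus strand) are 3697 bases apart, and Mir30d overlaps an exon of the long non-coding RNA Gm20732.

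Depth was high for every member arm of the 5p kind and low for some 3p arms. Total reads ran from 14628518 to 23408028 in SCI libraries, against 10585062 to 24480988 in controls, and 72.93% to 78.94% of them fell in miRNA arms. The first principal component of log2 CPM took 36.3% of the variance and placed SCI libraries between -6.26 and -2.38, against 1.46 to 9.49 in controls, with control 1 at the far end. Marker miRNAs of neurons (4 of 4 detected) summed to 163841 to 177975 CPM in SCI libraries, against 193806 to 213251 CPM in controls, without overlap. Those of oligodendrocytes (3 of 3) summed to 5637 to 6418 CPM, against 6442 to 8762 CPM in controls, also without overlap. The sums for microglia and leukocytes, endothelium and mural cells, erythrocytes, choroid plexus and epithelium, muscle, and the liver miRNA miR-122-5p (5.45 CPM on average) overlapped between the groups, no marker list was at 0, and none of the marker arms passed the level test. For comparison, the groups did not overlap in level in 20.3% of the 690 single arms tested, and the share for sums of several arms was not counted. The part of these marker differences in the results below was not tested.

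The 5p arms of the family made up a large part of cortical microRNA. Their summed level was 90327, 88419 and 86147 CPM in SCI libraries 1, 2 and 3, against 98341, 86022 and 85962 CPM in control libraries 1, 2 and 3. CPM is the usual depth-normalised count, here over reads in miRNA arms after TMM scaling, which sets the typical arm equal between libraries. The sum was thus 88298 ± 2092 CPM in SCI and 90109 ± 7130 CPM in controls (SD, n = 3 each), and the groups overlapped. As a share of all reads in miRNA arms without TMM scaling, it was 9.18%, 9.15% and 9.23% in SCI libraries, against 9.13%, 8.33% and 8.49% in controls. On that scale every SCI library lay above every control, narrowly so for control 1. The log2 ratio of the group means was 0.09, against -0.03 for the TMM sum, and neither was tested. Total count scaling also moved the median log2 fold change of all arms by 0.12. Grouped by seed, GUAAACA ranked 3 among 585 seeds by summed level. The 6 3p arms together held 1348 ± 46.1 CPM in SCI and 1430 ± 44.9 CPM in controls (SD, n = 3 each).

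Within the family the order of levels was the same in 5 libraries. miR-30a-5p was highest at 27632, 26751 and 26965 CPM in SCI libraries 1, 2 and 3, against 30921, 25526 and 26778 CPM in control libraries 1, 2 and 3, which placed it at rank 7 of the 690 arms. miR-30c-5p followed at rank 11, with 23636, 24438 and 23020 CPM in SCI libraries, against 24035, 23822 and 22917 CPM in controls. miR-30d-5p stood at rank 15, with 20134, 19556 and 19509 CPM in SCI libraries, against 17632, 20383 and 18468 CPM in controls. These upper members were tightly held: over all 6 libraries their ranges did not overlap one another. miR-30e-5p, at rank 20, had 13386, 12508 and 11620 CPM in SCI libraries, against 20077, 11959 and 12877 CPM in controls. Control 1 was far above the other 5 libraries for this arm, and there it exceeded miR-30d-5p. miR-30b-5p was the lowest 5p arm, at rank 39, with 5539, 5166 and 5033 CPM in SCI libraries, against 5676, 4332 and 4922 CPM in controls. Small RNAs are read whole, so no length correction applies, but ligation efficiency was not measured and can set part of the order between arms.

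None of the 5p arms differed in level between SCI and control beyond the spread between libraries. The log2 fold changes (SCI over control, with a standard error derived from edgeR's F statistic) were -0.03 ± 0.11 for miR-30a-5p, 0.08 ± 0.13 for miR-30b-5p, 0.01 ± 0.10 for miR-30c-5p, 0.07 ± 0.10 for miR-30d-5p and -0.26 ± 0.19 for miR-30e-5p. The smallest Benjamini-Hochberg adjusted p of the 5 arms in edgeR's quasi-likelihood test was 0.554. Among all 690 arms the median log2 fold change was -0.02, against 0.01 over the 5 arms, and 0 arms passed an adjusted p of 0.05 (0%). Without adjustment 97 arms (14.1%) were under 0.05, of which 0 were miR-30 arms, and DESeq2 passed 12 arms, again with 0 miR-30 arms. The value of miR-30e-5p rested on control 1. Without that library its log2 fold change was 0.01, and it was -0.61 when only the most abundant read of each arm was counted (adjusted p = 0.449, edgeR). That read, of 24 nt, was counted 34256, 54887 and 38151 times in SCI libraries, against 124557, 20499 and 61095 times in controls. The count of the most abundant read was not tested without control 1.

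**Figure D1:**
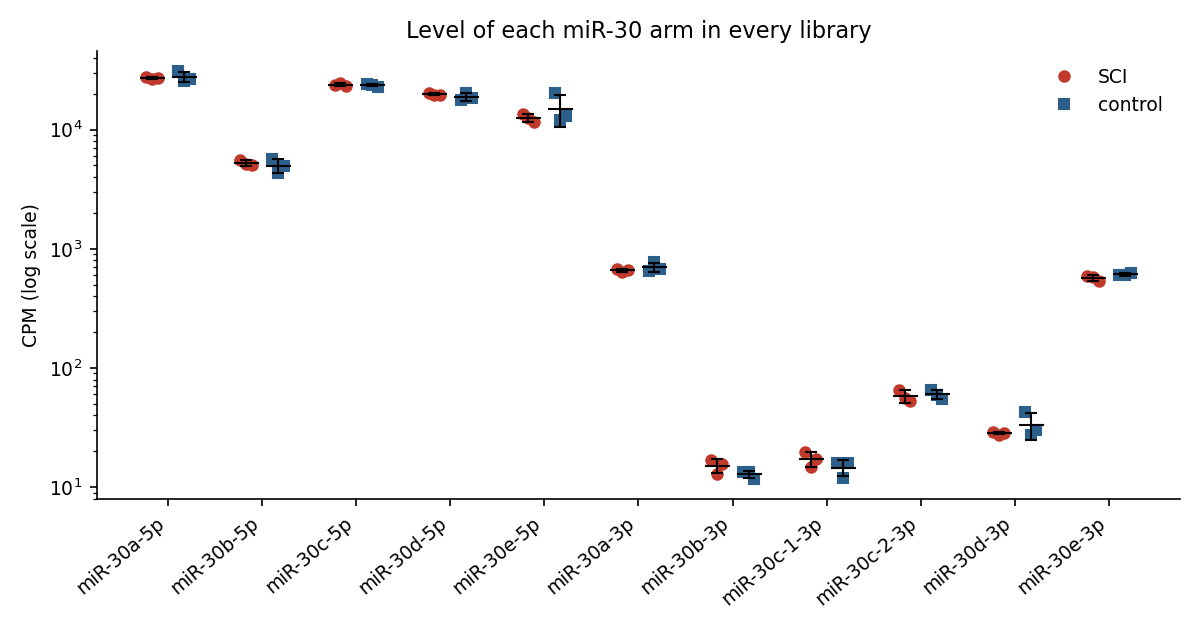
Level of the 11 miR-30 arms in CPM on a log axis, with SCI libraries (circles) left of control libraries (squares) and bars for the mean and SD of 3 libraries. The groups lie on top of each other for the 5p arms, and control 1 stands above the rest for miR-30e-5p.

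The 3p arms, the strands that are mostly discarded, were 1 to 3 orders of magnitude less abundant. miR-30a-3p had 672, 641 and 667 CPM in SCI libraries 1, 2 and 3, against 657, 770 and 673 CPM in control libraries 1, 2 and 3. miR-30e-3p had 596, 576 and 533 CPM in SCI libraries, against 598, 598 and 631 CPM in controls. It was the only one of the 11 arms whose groups did not overlap, with every SCI library below every control. Such a separation occurred in 20.3% of all arms tested, and its log2 fold change of -0.10 ± 0.12, which was 0.01 under total count scaling, did not pass (adjusted p = 0.738, edgeR). The remaining 3p arms were scarce: the mean over 6 libraries was 59.0 CPM for miR-30c-2-3p, 30.8 CPM for miR-30d-3p, 15.9 CPM for miR-30c-1-3p and 14.0 CPM for miR-30b-3p. Their log2 fold changes ran from -0.23 for miR-30d-3p, which was -0.02 without control 1, to 0.24 for miR-30b-3p, which was 0.58 when only the most abundant read of each arm was counted, and the smallest adjusted p of the 6 3p arms was 0.575.

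Because both arms of a hairpin come from the same transcript, the share of 3p reads can be read apart from the level of that transcript. Reads with added bases were left out of this share. In SCI, added U was on 27.9% of miR-30a-3p and 31.0% of miR-30e-3p reads, against 1.65% and 2.13% for their 5p arms. The 3p shares of these hairpins are therefore lower than they would be with such reads included. It was 2.38 ± 0.04% in SCI and 2.49 ± 0.43% in controls for miR-30a, and 4.35 ± 0.08% in SCI and 4.11 ± 1.05% in controls for miR-30e (SD, n = 3 each). The other hairpins gave still fewer 3p reads, with 0.288% in SCI and 0.261% in controls for miR-30b, 0.317% in SCI and 0.315% in controls for miR-30c, and 0.144% in SCI and 0.179% in controls for miR-30d. The family thus sat low among the 243 hairpins with enough reads in both arms, with miR-30d at rank 238 and miR-30e at rank 189 by 3p share. miR-384, with the same 5p seed, lay on the other side of even use, at 65.6 ± 1.43% in SCI and 60.9 ± 8.34% in controls. In limma, 0 of 243 hairpins (0%) passed for the log2 ratio of 3p over 5p reads, and the miR-30 differences ran from -0.27 for miR-30d, which was -0.03 without control 1, to 0.15 for miR-30b. Between paralogs the ratio of miR-30e-5p to miR-30a-5p was 0.484, 0.468 and 0.431 in SCI libraries 1, 2 and 3, against 0.649, 0.469 and 0.481 in control libraries 1, 2 and 3. The library that set this ratio apart was control 1, and the 3p partners did not share it: miR-30e-3p over miR-30a-3p was 0.887, 0.898 and 0.799 in SCI libraries, against 0.911, 0.777 and 0.938 in controls.

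The 5′ ends of the 5p arms did differ between the groups. In all 5 arms nearly every read began at 1 base, the U before the seed, and the share of reads at that main start was higher in SCI cortex, with every SCI library above every control. For miR-30c-5p it was 98.84%, 98.91% and 98.97% in SCI libraries 1, 2 and 3, against 97.88%, 97.99% and 98.29% in control libraries 1, 2 and 3. The difference was 0.84 ± 0.09 on the log2 odds scale (limma estimate with its standard error, adjusted p = 0.00297). The counting error is small beside it, since the widest 95% Wilson interval of miR-30c-5p in any library spanned 0.126 percentage points. PCR duplicates could not be told from separate molecules, so the intervals cover counting error only. How the degenerate adapter bases were trimmed is not given, and the part of trimming in the start shares was not tested.

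The other 4 arms moved the same way. miR-30d-5p began at the main start in 99.07%, 99.12% and 99.15% of reads in SCI libraries, against 98.36%, 98.48% and 98.70% in controls (0.75 ± 0.09 log2 odds, adjusted p = 0.00297). miR-30b-5p did so in 98.96%, 99.06% and 99.17% of reads in SCI libraries, against 98.21%, 98.16% and 98.59% in controls (0.85 ± 0.13, adjusted p = 0.00554). The remaining pair, miR-30a-5p and miR-30e-5p, had smaller differences. miR-30a-5p had 98.30%, 98.42% and 98.46% in SCI libraries, against 97.57%, 97.85% and 98.03% in controls (0.45 ± 0.09, adjusted p = 0.0135). miR-30e-5p had 97.80%, 97.87% and 97.97% in SCI libraries, against 96.61%, 97.33% and 97.30% in controls (0.47 ± 0.10, adjusted p = 0.0217). These last 2 calls are the weaker ones. Both were lost in limma without a mean-variance trend (adjusted p = 0.0610 for miR-30a-5p and 0.0749 for miR-30e-5p), without SCI 2 (0.0520 and 0.0678) and without SCI 3 (0.0732 and 0.0864), and that of miR-30e-5p also without SCI 1 (0.0512). Over these and the other alternatives the adjusted p of miR-30a-5p ran from 0.00290 to 0.0732 and that of miR-30e-5p from 0.0127 to 0.0864, while the calls of miR-30b-5p, miR-30c-5p and miR-30d-5p held in all of them. Without control 1, the library that stood apart in the principal components, 5 of the 5 arms still passed, among 61 arms in all.

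Most reads behind this difference began 1 base later, at the G that opens the seed. For miR-30c-5p such reads made up 0.736%, 0.652% and 0.588% in SCI libraries 1, 2 and 3, against 1.60%, 1.49% and 1.23% in control libraries 1, 2 and 3. For miR-30b-5p they made up 0.753%, 0.638% and 0.555% in SCI libraries, against 1.38%, 1.43% and 1.08% in controls. For miR-30d-5p the shares were 0.792%, 0.736% and 0.700% in SCI libraries, against 1.44%, 1.32% and 1.14% in controls. No SCI library reached the lowest control in any of the 3 arms. miR-30a-5p had 1.47 ± 0.08% in SCI and 2.01 ± 0.19% in controls, and miR-30e-5p 1.94 ± 0.08% in SCI and 2.63 ± 0.31% in controls (SD, n = 3 each). Reads beginning 1 base earlier were rarer and did not share this pattern. For miR-30c-5p they made up 0.321 ± 0.017% in SCI and 0.314 ± 0.008% in controls, and the groups overlapped, as they did for miR-30b-5p (0.198 ± 0.022% in SCI and 0.240 ± 0.049% in controls). In the other 3 arms every SCI library lay above every control, with 0.043 ± 0.007% in SCI and 0.032 ± 0.002% in controls for miR-30a-5p, 0.051 ± 0.009% in SCI and 0.040 ± 0.004% in controls for miR-30d-5p, and 0.065 ± 0.008% in SCI and 0.050 ± 0.006% in controls for miR-30e-5p (SD, n = 3 each, not tested). For early and for late starts, the share of all arms in which the groups separated was not counted. Over the 5 arms together, 1.19%, 1.09% and 1.04% of reads began 1 base late in SCI libraries, against 2.03%, 1.72% and 1.57% in controls.

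A read that begins 1 base late carries a shifted seed, as the most abundant read of each kind shows. The reads are taken from the deposited tables, 5′ to 3′ as DNA, with bases 2 to 8 in capitals.
miR-30c-5p main start: tGTAAACAtcctacactctcagct
miR-30c-5p late start: gTAAACATcctacactctcagc
miR-30e-5p main start: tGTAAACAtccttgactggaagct
miR-30e-5p late start: gTAAACATccttgactggaagct

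The late miR-30c-5p read was counted 839, 1228 and 969 times in SCI libraries 1, 2 and 3, against 2633, 1288 and 2432 times in control libraries 1, 2 and 3. The main read was counted 118529, 184789 and 148641 times in SCI libraries, against 193290, 78654 and 175519 times in controls. The late start was thus a small minority everywhere, and no 5p arm in any library had less than 96.6% of its reads at the main start.

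**Figure D2:**
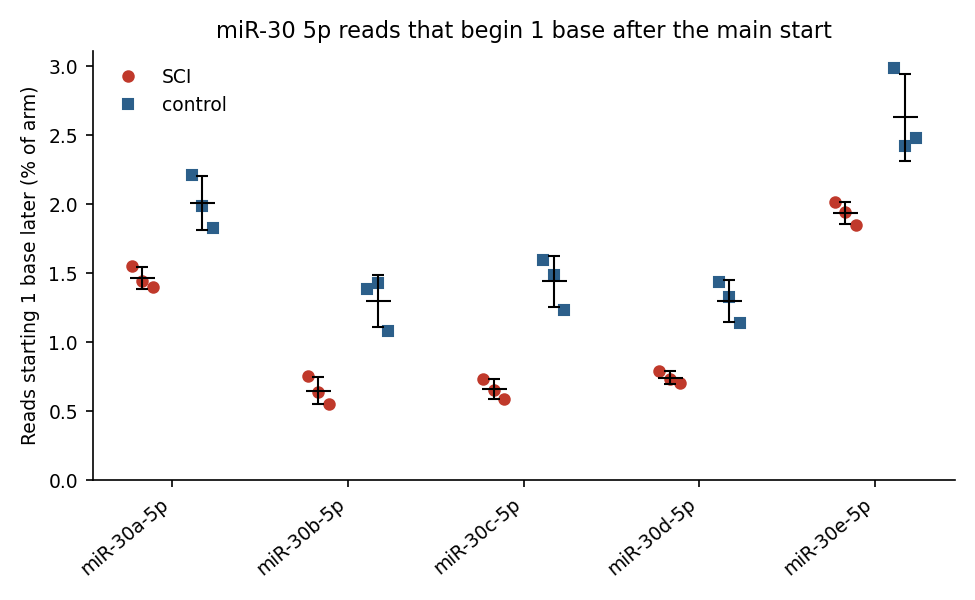
Share of reads of each miR-30 5p arm that begin 1 base after the main start, in percent, with SCI libraries (circles) left of control libraries (squares) and bars for the mean and SD of 3 libraries. In each of the 5 arms all SCI libraries lie below all controls, and the share of all arms with such a separation was not counted.

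This difference was not confined to miR-30. The main-start share passed in 56 of 397 arms with a mean of at least 200 reads per library (14.1%), 55 of them higher in SCI (13.9%), against 5 of the 5 miR-30 5p arms. The SCI libraries lay above the controls without overlap in 127 arms (32%). The miR-30 5p arms had 34810 to 513944 reads per library, and the arms compared were not matched for depth. The median difference was 0.14 log2 odds over all 397 arms and 0.75 over the 5 arms. Among the 156 other arms whose main read starts with U, 35 passed in the same direction (22.4%), against 10 of 113 starting with A (8.85%), 3 of 81 starting with C (3.70%) and 2 of 36 starting with G (5.56%). In other arms starting with U, pooled, late starts made up 1.74%, 1.74% and 1.64% of reads in SCI libraries 1, 2 and 3, against 2.38%, 2.38% and 2.27% in control libraries 1, 2 and 3. In other arms starting with A they made up 13.7%, 12.9% and 12.6% in SCI libraries, against 14.7%, 11.9% and 12.3% in controls. In other arms starting with C they made up 2.382%, 2.261% and 2.289% in SCI libraries, against 2.556%, 2.496% and 2.433% in controls. In other arms starting with G they made up 16.98%, 15.80% and 15.34% in SCI libraries, against 19.51%, 12.90% and 15.78% in controls. SCI libraries thus lay below controls without overlap in the U-starting and C-starting pools, and the groups overlapped in the A-starting and G-starting pools. The part of this wider shift in the miR-30 values was not tested.

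Related arms did not follow a single pattern. miR-384-5p, which shares the seed, had a main-start share of 94.1 ± 0.14% in SCI and 93.6 ± 0.78% in controls, and its difference of 0.13 log2 odds did not pass (adjusted p = 0.485, limma). Its reads that began 1 base late nonetheless made up 1.95%, 1.87% and 2.11% in SCI libraries, against 3.04%, 2.80% and 2.94% in controls, without overlap. Those that began 2 bases late made up 3.64 ± 0.07% in SCI and 3.10 ± 0.61% in controls (SD, n = 3 each), and the groups overlapped. Neither share was tested. The miR-30 3p arms start with C, and 0 of 6 passed. miR-30a-3p, with 77.1%, 76.0% and 77.1% at its main start in SCI libraries, against 74.8%, 75.6% and 74.8% in controls, was the only one whose groups did not overlap (0.13 ± 0.07 log2 odds, adjusted p = 0.319). miR-30a-3p and miR-30e-3p, which share a seed, differed in how exact their start was: 22.7 ± 0.72% of miR-30a-3p reads in SCI and 23.8 ± 0.54% in controls began 1 base late, but 2.26 ± 0.24% of miR-30e-3p reads in SCI and 2.46 ± 0.05% in controls (SD, n = 3 each). Of the other abundant families, 2 of 2 miR-26 5p arms passed with larger differences than any miR-30 arm (1.77 and 2.18 log2 odds), 1 of 9 let-7 5p arms passed, and 0 of 3 miR-29 3p arms did.

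**Figure D3:**
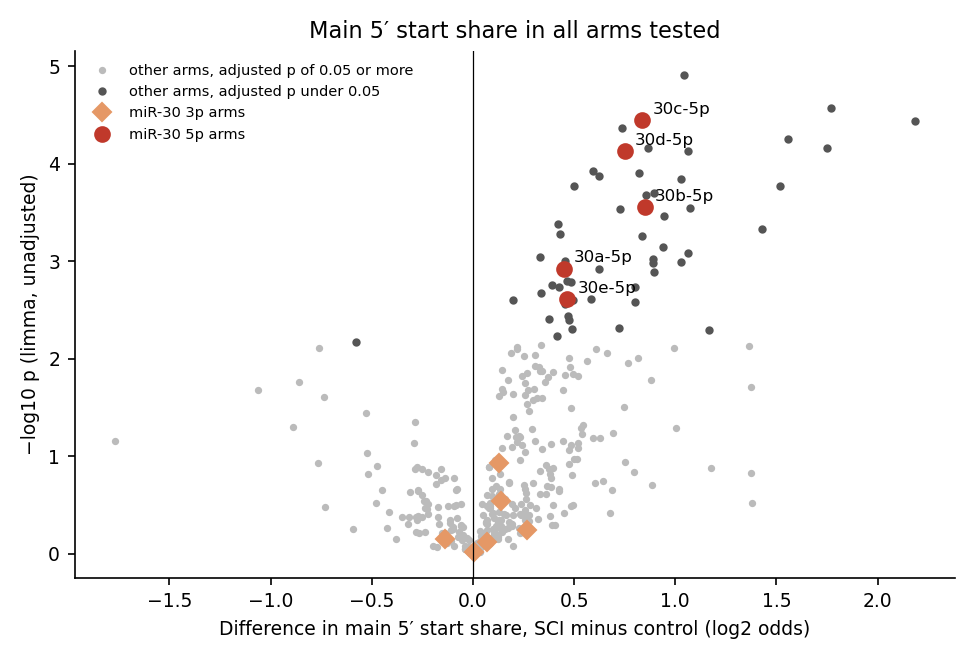
Difference in the share of reads at the main 5′ start (SCI minus control, log2 odds) for 397 arms, against −log10 of limma's unadjusted p. The 5 miR-30 5p arms lie to the right of 0 among many other arms that passed, and the miR-30 3p arms lie near 0.

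The 3′ ends set the members apart from each other more than from group to group. miR-30b-5p was nearly of 1 length: 78.0 ± 0.77% of its reads were 22 nt in SCI and 76.5 ± 2.40% in controls. miR-30c-5p was the longest arm of the family, ranking 9 of 397 by mean length (23.2 nt), with 41.4 ± 1.14% of its reads at 23 nt in SCI and 41.0 ± 2.94% in controls. It had slightly more reads at 24 nt on average, 42.6 ± 0.95% in SCI and 43.3 ± 4.50% in controls (SD, n = 3 each). miR-30a-5p, miR-30d-5p and miR-30e-5p, in contrast, were spread over 19 to 24 nt with no length above 37.4% in any library. miR-30d-5p had peaks on both sides of 21 nt, with 20.9% of reads at 20 nt and 22.3% at 23 nt in SCI, against 21.8% and 21.8% in controls.

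None of the 397 arms passed for mean read length in limma (0%). The miR-30 5p differences ran from -0.14 nt for miR-30e-5p to 0.01 nt for miR-30b-5p, with 25 arms under an unadjusted p of 0.05 in all. Control 1 again stood apart. Reads of 24 nt made up 37.4% of its miR-30e-5p reads, against 21.1% to 24.9% in the other 5 libraries, and 26.1% of its miR-30a-5p reads, against 12.5% to 14.8% in the others. Without control 1 the mean length difference of miR-30e-5p was 0.02 nt. Control 1 is thus the library with the most miR-30e-5p and the longest reads of it.

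**Figure D4:**
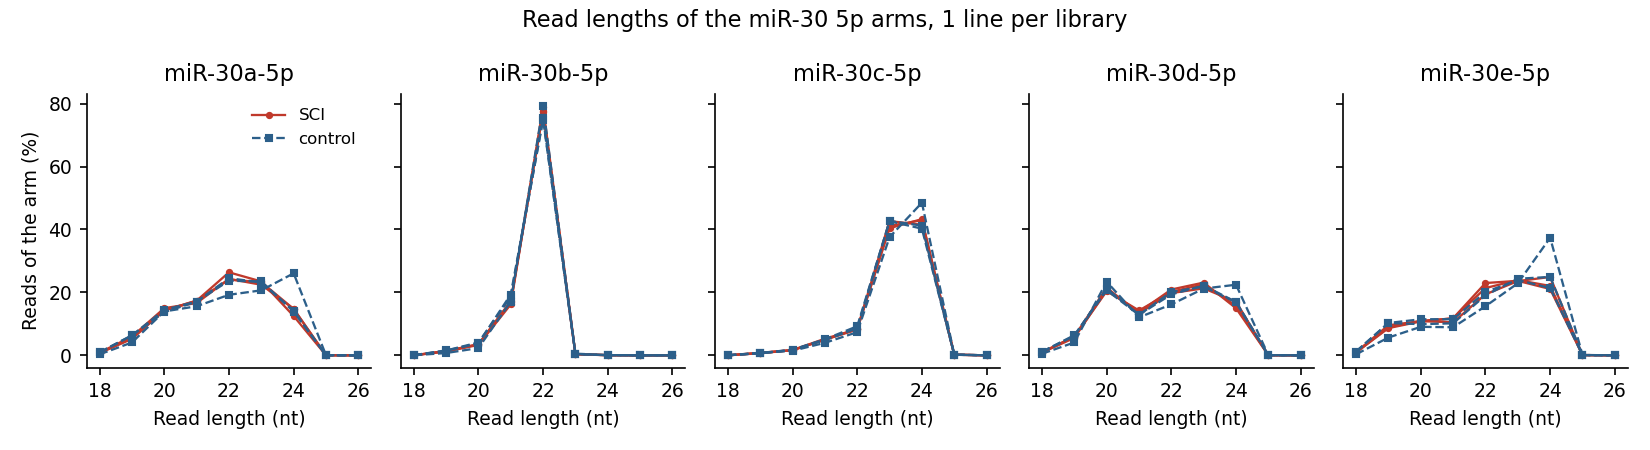
Read lengths of the 5 miR-30 5p arms in percent of the arm's reads, with 1 line per library (SCI solid, control dashed). miR-30b-5p peaks at 22 nt and miR-30c-5p at 23 and 24 nt, whereas the others are broad, and the control line that rises at 24 nt for miR-30a-5p and miR-30e-5p is control 1.

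Reads carrying A that the hairpin does not encode were counted as reads with 1 to 3 added A at the 3′ end. Such adenylation is known to be the work of non-canonical poly(A) polymerases. In miR-30d-5p it reached 5.89%, 4.35% and 4.92% in SCI libraries 1, 2 and 3, against 4.25%, 3.89% and 3.65% in control libraries 1, 2 and 3. In miR-30e-5p it reached 5.71%, 4.25% and 5.02% in SCI libraries, against 4.02%, 4.06% and 3.60% in controls. In miR-30a-5p it reached 4.80%, 3.71% and 4.18% in SCI libraries, against 3.56%, 3.46% and 3.35% in controls. The SCI libraries lay above the controls in each of these 3 arms, with differences of 0.37 ± 0.13, 0.37 ± 0.13 and 0.30 ± 0.11 log2 odds in the order given. None passed after adjustment (adjusted p = 0.296 for each, limma), and 0 of 397 arms did (0%). Without adjustment 54 arms (13.6%) were higher in SCI at 0.05, and SCI lay above control without overlap in 80 arms (20.2%). The median difference over all arms was 0.14 log2 odds.

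The same arms carried added A at 1 place. Among miR-30d-5p reads whose encoded part ended 21 bases from the main start, 20.6% went on with A, and for miR-30e-5p and miR-30a-5p the shares were 23.0% and 14.1%. After 22 bases the share was 2.78% to 3.59%, and after 20 bases the next encoded base is itself A, so an added A cannot be told from the hairpin there. The most abundant such reads, from the deposited tables with the added base in capitals, show that the A stands where the hairpin has G.
miR-30a-5p with added A: tgtaaacatcctcgactggaaA
miR-30e-5p with added A: tgtaaacatccttgactggaaA

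miR-30b-5p and miR-30c-5p, whose 3′ ends have other sequences, carried less added A and showed no separation of the groups, with 1.49 ± 0.20% in SCI and 1.48 ± 0.14% in controls for miR-30b-5p and 1.54 ± 0.15% in SCI and 1.42 ± 0.12% in controls for miR-30c-5p (SD, n = 3 each). Nearly all additions were of 1 base: in miR-30d-5p, a single A ended 4.92% of reads in SCI and 3.82% in controls, and AA only 0.119% in SCI and 0.0980% in controls.

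Added U, the mark of terminal uridylyl transferases, was found mainly on the 3p arms. In miR-30e-3p 30.7%, 30.9% and 31.6% of reads carried it in SCI libraries 1, 2 and 3, against 37.4%, 30.9% and 29.4% in control libraries 1, 2 and 3, which placed the arm at rank 14 of 397. In miR-30a-3p 28.7%, 27.1% and 28.0% of reads did so in SCI libraries, against 32.3%, 25.2% and 26.2% in controls (rank 19). The groups overlapped in both, and control 1 was the highest library in both. miR-30b-3p stood at rank 29, with 17.6%, 16.5% and 19.4% in SCI libraries, against 29.7%, 23.9% and 21.4% in controls. Its groups did not overlap, but the difference of -0.60 ± 0.33 log2 odds did not pass (adjusted p = 0.694, limma). The share of all arms with such a separation was not counted for added U. This arm is the least abundant of the family, with 107 to 246 matched reads per library. miR-30d-3p had 11.3 ± 0.74% in SCI and 9.36 ± 1.85% in controls, and both miR-30c 3p arms stayed under 5% in every library.

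On the 5p arms added U was rare, from 0.759% in SCI and 0.855% in controls for miR-30b-5p to 2.24% in SCI and 2.44% in controls for miR-30d-5p. None of the 397 arms passed the test for added U (0%), with 21 under an unadjusted p of 0.05. The U on 3p reads also stood at 1 place: of the miR-30e-3p reads whose encoded part ended 21 bases from the main start, 68.8% went on with U, and of those of miR-30a-3p 58.1% did. After 22 encoded bases, the share was 1.35% for miR-30e-3p, and for miR-30a-3p the next encoded base is itself U, so an added U cannot be told from the hairpin there. The most abundant such reads, from the deposited tables, have the added base in capitals, written as T.
miR-30a-3p with added U: ctttcagtcggatgtttgcagT
miR-30e-3p with added U: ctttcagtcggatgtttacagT

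**Figure D5:**
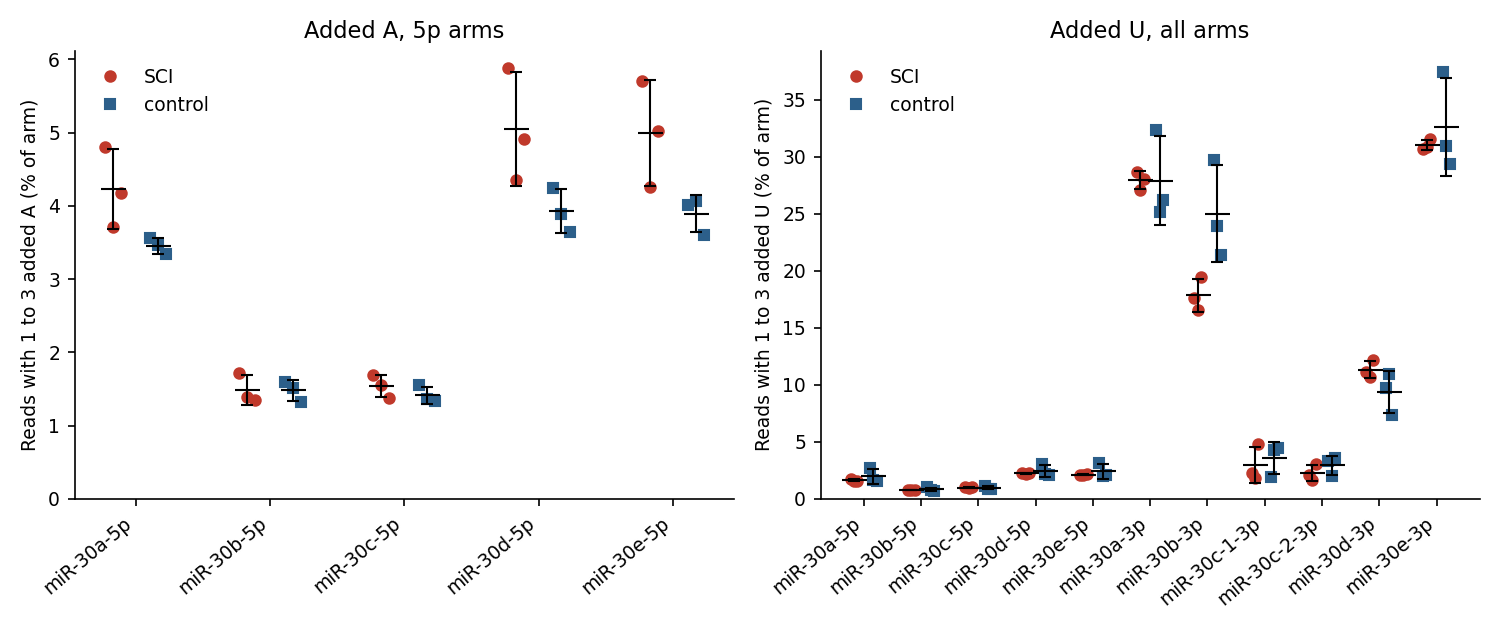
Left, reads of the miR-30 5p arms with 1 to 3 added A, and right, reads of all 11 arms with 1 to 3 added U, in percent of the arm's reads, with SCI libraries (circles) left of control libraries (squares) and bars for the mean and SD of 3 libraries. For added A, all SCI libraries lie above all controls in miR-30a-5p, miR-30d-5p and miR-30e-5p. Such a separation occurred in 20.2% of all arms tested, and none of these arms passed. Added U is high in the 3p arms of miR-30a, miR-30b and miR-30e.

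Other abundant families were measured on the same TMM scale. The 9 let-7 5p arms summed to 93844 ± 3002 CPM in SCI and 103675 ± 11918 CPM in controls, the 2 miR-26 5p arms to 82042 ± 3490 CPM in SCI and 85164 ± 3557 CPM in controls, and the 3 miR-29 3p arms to 101997 ± 8548 CPM in SCI and 125499 ± 27892 CPM in controls (SD, n = 3 each). Median log2 fold changes were -0.19 for let-7, -0.11 for miR-26 and -0.27 for miR-29, against 0.01 for the 5 miR-30 5p arms, and 0 arms of these families passed in edgeR. By the root mean square difference of centred log2 CPM over the 6 libraries, the arms most like the miR-30 5p sum among 230 candidates were miR-330-5p (0.05), the merged miR-376b/376c-5p (0.06), miR-1a-3p (0.06), miR-124a-5p (0.07) and miR-128-3p (0.08). The ratio of the neighbours Mir30d and Mir30b varied mostly among controls: miR-30d-5p over miR-30b-5p was 3.64, 3.79 and 3.88 in SCI libraries 1, 2 and 3, against 3.11, 4.70 and 3.75 in control libraries 1, 2 and 3. miR-384-3p, the main strand of miR-384, had 1757, 1980 and 1981 CPM in SCI libraries, against 1312, 1645 and 1588 CPM in controls, without overlap, and did not pass (log2 fold change 0.33 ± 0.13, adjusted p = 0.288). miR-384-5p had 997 ± 53.2 CPM in SCI and 979 ± 233 CPM in controls (SD, n = 3 each), so miR-30 5p arms made up almost all reads with the shared seed.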

How the data were processed

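Small RNA from the sensorimotor cortex of 3 SCI and 3 control mice was analysed, with groups taken from the treatment in the labels. The authors deposited, per the file headers, the raw read count of each distinct sequence per library. Which trimmer, aligner and filters were applied is not given in the sources used here. GENCODE M21, whose 1174 named hairpins were used, has the build (GRCm38) that the submitters' processing notes name.

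Reads of 18 to 26 nt were summed per arm. Arms were merged where their dominant reads were identical or where at least 50% of the smaller arm's reads fell in both, and reads still in several arms were left out (0.1% to 0.153%). Such matching splits miR-30a and miR-30e by their differing base. Reads too short or end-edited to match are not counted in levels, arm ratios, lengths or start shares. Added bases were 1 to 3 bases of A or U beyond the longest exact match. The main start is the start position with the most reads of the arm over all libraries. In the miR-30 arms it is also the start of the most abundant read, from which early and late starts were counted. Lowest depth was 10585062 reads.

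Levels were tested with edgeR 4.0.16 (quasi-likelihood, TMM, filterByExpr with minimum count 10), and the 3p over 5p ratio (log2, pseudocount 0.5, at least 10 reads on average in both arms), mean length, and start and added-base shares (log2 odds, 0.5 reads added to both parts, at least 200 reads on average) with limma 3.58.1 with a mean-variance trend, with no covariate, using the 6 libraries together in R 4.3.3. Adjusted p is Benjamini-Hochberg over all arms, with a threshold of 0.05. DESeq2 1.42.0 was an alternative. The scripts were tested on simulated data. Tables and plots used Python 3.11.15, pandas 2.3.3, numpy 2.4.6, scipy 1.17.1 and matplotlib 3.10.9. The labels name separate samples but no litters or cages, so p-values measure the spread between these samples.

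All miR-30 arms were named, with any arm of the same seed, the 5 arms of at least 100 CPM most like the 5p sum, and marker and family lists. The members and lists were chosen with earlier results of these data known.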

Additional observations from a re-analysis of the deposited data

How the results depend on the processing

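No miR-30 arm passed for level under any of the 13 alternatives, and none passed for arm ratio, length, added A or added U. Over all arms the level test passed 12 arms in DESeq2 and 30 without the filter on low counts, and 0 to 7 with a library left out, 2 without SCI 1 and 7 without SCI 2. The ratio test passed 0 to 2 hairpins with a library left out. The 56 arms that passed for the main 5′ start became 36 in limma without the trend and 29 to 65 with a library left out (29 without SCI 3), and the 5 miR-30 arms became 3 in that fit, without SCI 2 and without SCI 3. With reads of 20 to 24 nt, an alternative chosen after seeing the data, 48 arms passed, 5 of them miR-30. Deviations of same-numbered libraries from their group means in log2 CPM correlated at 0.274, -0.0716 and -0.0947 for numbers 1, 2 and 3. With 3 libraries a group, these values cannot decide whether the numbers pair the libraries, and the labels name no batch. With a replicate block 0 arms passed for level, with 103 under an unadjusted p of 0.05, and 68 passed for the main start, with the 5 miR-30 arms among them. Total count scaling moved the median log2 fold change of all arms by 0.12. It turned small level differences to 0.030 for miR-30a-3p, 0.085 for miR-30a-5p, 0.071 for miR-30c-2-3p and 0.013 for miR-30e-3p. Using the most abundant read turned miR-30a-5p to 0.15 and miR-30c-5p to -0.00061, and no filter turned miR-30c-5p to -0.0018. With a library left out, levels ran from -0.091 to 0.049 for miR-30a-5p, -0.016 to 0.18 for miR-30b-5p, -0.13 to 0.034 for miR-30c-2-3p, -0.022 to 0.039 for miR-30c-5p and -0.40 to 0.0071 for miR-30e-5p. Ratios ran from -0.18 to 0.075 for miR-30a, -0.089 to 0.072 for miR-30c and -0.12 to 0.25 for miR-30e. Lengths ran from -0.15 to 0.018 nt for miR-30a-5p, -0.00051 to 0.038 for miR-30b-5p, -0.042 to 0.024 for miR-30c-5p and -0.25 to 0.024 for miR-30e-5p. Added A of miR-30b-5p ran from -0.11 to 0.065, and added U from -0.086 to 0.17 for miR-30a-3p and -0.20 to 0.060 for miR-30e-3p. The causes were not tested. Depth limits the scarce 3p arms, where the widest 95% Wilson interval of the main-start share was 12.4 percentage points for miR-30c-1-3p. With 3 libraries a group, an exact permutation test could not go below 0.1.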
